A study of Plecoglossus altivelis with 2 samples.

Results

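Ayu (Plecoglossus altivelis) is a fish that migrates between rivers and the sea, and the 23 components described here are parts of its assembled transcriptome with very long transcripts. A component is the identifier that groups related transcripts of the assembly. A component was taken where its longest transcript had 10000 bases or more and where it held fewer than 30 transcripts. This gave 23 of 70911 components, with 263 of 145445 transcripts. Another 5 components reached this length but held 30 or more transcripts and were left out.

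The study compared larvae kept in brackish water, which held 0.17 M NaCl at a salinity of 10 ppt, with larvae kept in fresh water. Both groups were reared from hatching at 20 to 22 °C on commercial pellets, in groups of 20 fish and in 4 tanks per salinity, and were sampled after 4 weeks of acclimation. RNA came from a mixture of 9 tissues (brain, gill, skin, muscle, heart, liver, kidney, spleen and intestine), sequenced as 1 library per salinity. The labels do not say how many fish or tanks were mixed, and they name no strain, genotype or sex. With a single library on each side, no difference below has a replicate check.

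Vertebrate genes with very long messenger RNAs are known for coding giant structural proteins, among them those of the muscle sarcomere, the cytoskeleton and the extracellular matrix, and large channels and motor proteins. In a fish that enters water of another salinity, the gill, kidney and intestine adjust salt and water transport. The files pair no identifier with a gene name, so no role is given to any of the 23 components, and the labelled tissues could not be checked against their marker genes. Whether a long transcript is a complete messenger RNA is not shown by the files. Components are called below by the length of their longest transcript, with the identifier for a few.

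The longest transcripts of the 23 components had 10258 to 19352 bases and a median of 11976, whereas the median over all components was 428 bases. At the limit, the last components inside had longest transcripts of 10258 and 10280 bases, and the first outside had 9922 and 9900 bases. The components inside were 1.24-fold and 1.27-fold higher in brackish water, and those outside 1.01-fold and 1.24-fold higher in fresh water. Each of the 23 held 2 to 27 transcripts, with a median of 9, whereas 75.6% of all components held a single transcript. They contained 77 of the 179 transcripts of 10000 bases or more in the assembly, and 16 of them held more than 1 such transcript. Many of their transcripts were nonetheless much shorter.

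The library totals were 72013090 estimated counts in brackish and 72522809 in fresh water. The 23 components took 450193 counts in brackish water, 0.625% of the library (exact 95% interval 0.623 to 0.627), and 426128 in fresh water, 0.588% (0.586 to 0.589). These intervals cover counting error only. They leave out the animals, the mixing of tissues, library making and the division of reads between transcripts. All 23 were well covered, with 2290 to 150657 counts in brackish and 1446 to 168702 in fresh water. Their median was 11926 scaled counts over both libraries, against 74.8 for all components. Scaled counts are estimated counts divided by the library total and multiplied by the mean of both totals. Since long transcripts gather more reads, the same components took only 0.102% of all TPM (a level per transcript length, scaled to the same sum of 1000000 in each library) in brackish and 0.0873% in fresh water. The median component of the 23 had 19.9 TPM in brackish and 14.7 TPM in fresh water.

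Counts were concentrated in a pair of components that together took 50.9% of the counts of all 23 in brackish and 59.6% in fresh water. The highest was comp119566_c0, with a longest transcript of 13500 bases. It had 2092 CPM (estimated counts scaled to a library total of 1000000) in brackish and 2326 CPM in fresh water, and ranked 43rd among all components by counts. It was 1.11-fold higher in fresh water (95% interval from counting error 1.10 to 1.12). The next, of 13652 bases, had 1088 CPM in brackish and 1176 CPM in fresh water, 1.08-fold higher in fresh water (1.07 to 1.09). Without this pair, the other components took 0.307% of the counts in brackish and 0.237% in fresh water. The direction of the sum of the pair depended on the scale, since by TPM it was 428 in brackish and 416 in fresh water, against 595 and 457 for the others. By TPM comp119566_c0 stayed higher in fresh water, with 217 in brackish and 228 in fresh water. Only the component of 13652 bases turned, with 211 in brackish and 188 in fresh water. With the components of the most abundant leading identifier number left out of the library totals, the log2 folds of the pair were 0.00 and 0.04, brackish over fresh water.

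The third most abundant component per kilobase of its longest transcript, of 10287 bases, had 459 CPM in brackish and 324 CPM in fresh water. The component of 10955 bases had 276 and 269.8 CPM, and that of 11465 bases 268 and 258 CPM. Each of these 2 components differed by no more than 1.04-fold between the libraries. At the low end, the component of 11976 bases had 36.2 CPM in brackish and 19.9 CPM in fresh water, and that of 12038 bases had 31.8 and 21.5 CPM.

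**Figure D1:**
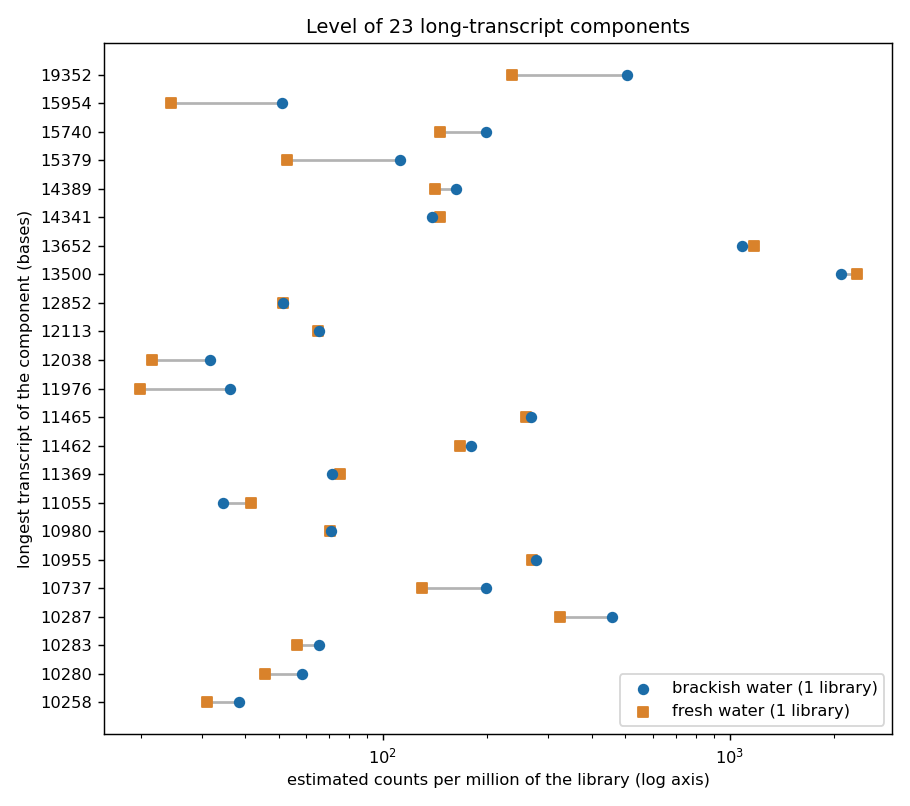
Level of each component in the brackish water library (circles) and the fresh water library (squares), as CPM on a log axis, ordered by the length of the longest transcript in bases. Each point is 1 library, and the grey line joins both libraries. The components of 13652 and 13500 bases stand highest, between 1088 and 2326 CPM, and the longest component shows a gap from 236 to 505 CPM.

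A level at least 2 times as high in brackish water was found for 3 of the 23 components, and none was 2-fold higher in fresh water. The rule asked for a fold of at least 2 with a pseudocount of 0.5 and for 50 or more scaled counts in whichever library was higher, and all 23 passed that minimum. By the same rule, 18.3% of 35291 components were 2-fold apart, and 8.22% were higher in brackish water. That background includes many components with few counts. Among 6070 components with 3000 or more scaled counts, summed over both libraries, a level that all 23 reached, 4.18% were 2-fold apart, and 1.73% were higher in brackish water. The 3 components make up 13.0% of the 23, a share that rests on 3 components in 1 pair of libraries. In mixed tissues, more RNA per cell and more cells of the type that makes it cannot be told apart.

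All 3 were among the 4 with the longest transcripts. The longest of the assembly belonged to comp127629_c3, of 19352 bases, which had 36361 counts (505 CPM) in brackish and 17120 counts (236 CPM) in fresh water. It was 2.14-fold higher in brackish water (95% interval from counting error 2.10 to 2.18). Component comp127551_c2, of 15379 bases, had 8073 counts (112 CPM) in brackish and 3838 counts (52.9 CPM) in fresh water. This was a 2.12-fold higher level in brackish water (2.04 to 2.20). The component of 15954 bases had 3696 counts (51.3 CPM) and 1771 counts (24.4 CPM). Its fold of 2.10 had an interval of 1.99 to 2.23, which reached below 2. By TPM, a level per length, these 3 were 2.26-fold, 2.19-fold and 2.18-fold higher in brackish water. The remaining one of the 4, of 15740 bases, had 198 CPM in brackish and 146 CPM in fresh water, and was 1.36-fold higher in brackish water (1.32 to 1.39).

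Below 2-fold, 7 components were 1.2 to 2 times higher in brackish and 1 was that much higher in fresh water. Shares at the 1.2-fold limit over all components, or over those of like depth, were not computed. Taken in either direction, the median fold was 1.15 for the 23 and 1.17 for the 6070 components with 3000 or more scaled counts. The largest difference below 2-fold was that of the component of 11976 bases, 1.82-fold higher in brackish water (1.70 to 1.94). The component of 10737 bases had 198 CPM in brackish and 130 CPM in fresh water, a fold of 1.53 (1.49 to 1.57). The components of 12038 and 10287 bases were 1.48-fold and 1.42-fold higher in brackish water. Together with that of 10283 bases, at 1.15-fold, the 5 components with the shortest of these long transcripts (10258 to 10737 bases) were all 1.15-fold to 1.53-fold higher in brackish water. The only one at least 1.2-fold higher in fresh water was comp127523_c2, of 11055 bases, with 34.5 CPM in brackish and 41.5 CPM in fresh water. Its level was 1.21-fold higher in fresh water (1.14 to 1.27).

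The other 12 components lay within 1.2-fold. Among them were those of 14389 bases (162 CPM in brackish and 141 CPM in fresh water), 14341 bases (139 and 146 CPM), 12852 bases (51.4 and 51.5 CPM) and 12113 bases (65.2 and 64.9 CPM). Over all 23, the counting interval of the fold lay above 1 for 15, below 1 for 5 and on both sides of 1 for 3. The same shares over all components, or over those of like depth, were not computed, so whether these numbers are unusual is not known. At this depth counting error is small, and the intervals are too narrow because PCR reads are not independent molecules. An interval that leaves out 1 therefore need not show a difference between these libraries, and cannot show one between the salinities. That of the component of 10955 bases ran from only 1.002 to 1.043. The numbers above and below 1 hold for this scale only. With the components of the most abundant leading identifier number left out of the totals, 22 of the 23 were higher in brackish water.

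The median log2 fold of the 23 components, brackish over fresh water, was 0.20, against -0.02 for all 35291 components compared. The folds ranged from -0.27 to 1.10 on the log2 scale. By library totals and by TMM factors 17 of 23 were higher in brackish water, by DESeq2 size factors 16 and by the deposited TPM values 19. The DESeq2 factors were both 1, so that count rests on unscaled counts. By library totals, 48.9% of the 35291 components were higher in brackish water, and 49.2% of the 6070 with 3000 or more scaled counts. A set of components sharing the leading number of their identifiers took 14.8% of all counts in brackish and 5.24% in fresh water. Leaving this set out of the totals raised each log2 fold by 0.15, for these and all other components alike, and 22 of the 23 were then higher in brackish water. These 22 include comp119566_c0, at a log2 fold of only 0.0008. The share over all components on that scale was not computed. The component of 11976 bases then also reached 2-fold, at 2.02, and a total of 4 did.

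**Figure D2:**
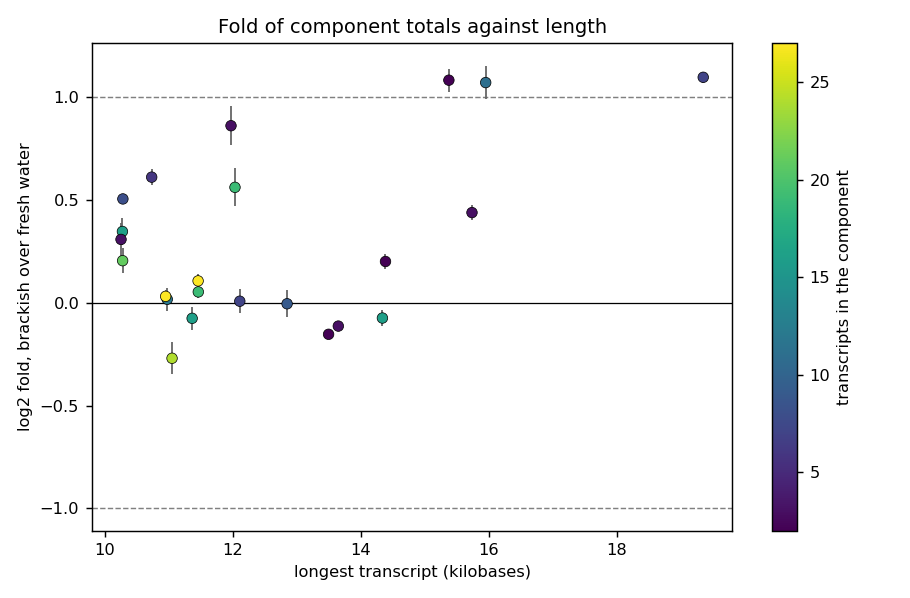
Log2 fold of each component total, brackish over fresh water, against the length of its longest transcript in kilobases, coloured by the number of transcripts in the component. Vertical lines are 95% intervals from counting error and dashed lines mark 2-fold. The 3 components above the upper dashed line have longest transcripts of 15379, 15954 and 19352 bases, and none lies below the lower line.

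Length and fold were only loosely related among the 23. Across these components of the same 2 libraries, Pearson's r between the log2 fold and the length of the longest transcript was 0.48, and Spearman's rho was 0.14. The 11 components of 12000 bases or more had a median log2 fold of 0.20 and the 12 shorter ones 0.16. Components with intermediate lengths of 12113 to 14389 bases included none above 1.15-fold in brackish water.

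Shorter components are compared here where they had a summed depth of 3000 or more scaled counts. In the next class, with longest transcripts of 5000 to under 10000 bases, 10 of 609 components (1.64%) were 2-fold apart, 5 in each direction. Their median log2 fold was 0.08, and 63.5% were higher in brackish water, against 73.9% of the 23. For 3197 components of 2000 to under 5000 bases the median was -0.01, with 3.35% at 2-fold, and for 1579 components of 1000 to under 2000 bases it was -0.07, with 5.19% at 2-fold. The medians did not follow length throughout, since 112 components under 500 bases had a median of 0.08. The 5 components of 10000 bases or more that were left out for their number of transcripts had a median of 0.22, and none was 2-fold apart. The largest of their folds was 1.86, in a component of 16779 bases with 97 transcripts.

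**Figure D3:**
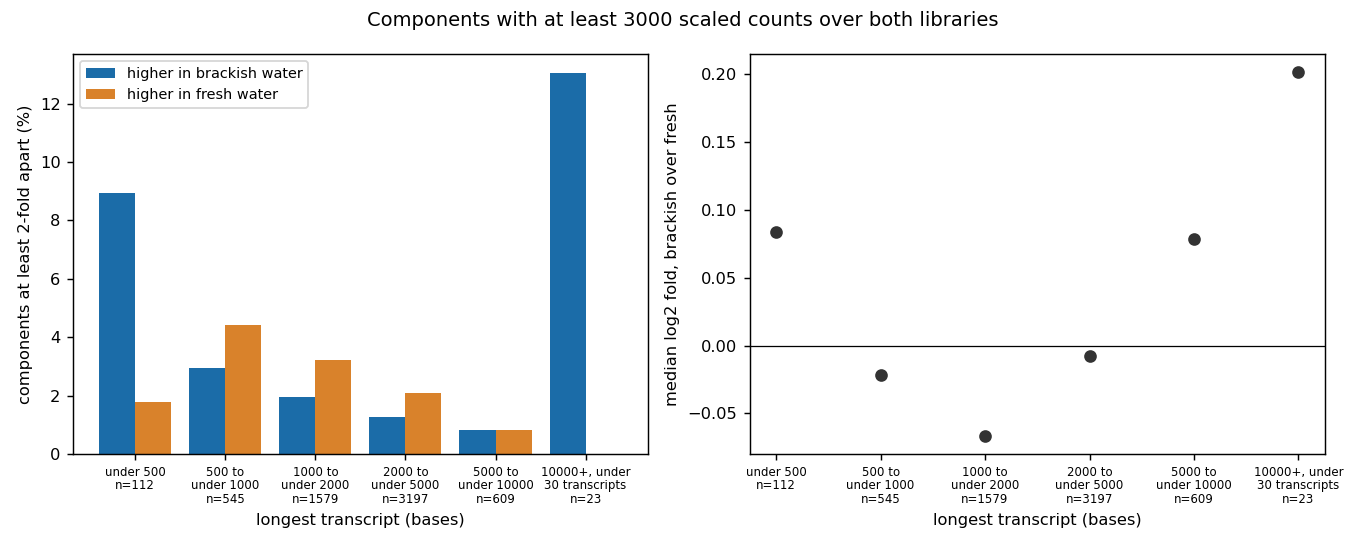
Components with 3000 or more scaled counts, summed over both libraries, by the length of the longest transcript in bases, with the number of components under each class. The left panel shows the percent at least 2-fold higher in brackish and in fresh water, and the right panel the median log2 fold, brackish over fresh water. The 23 long components stand at 13.0% and 0 on the left, from 3 components, and at 0.20 on the right.

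A component chosen for its long transcript need not owe its counts to that transcript. The longest transcript held a median of 25.2% of its component's counts in brackish and 26.6% in fresh water. It held at least 50% in 6 components and under 10% in 7 components in brackish and 8 in fresh water. By the authors' deposited percent its median was 12.3% in brackish and 13.1% in fresh water, with at least 50% in 3 and 4 components. In comp127551_c2 the transcript of 15379 bases held all counts in brackish and 99.4% of those in fresh water. The longest transcripts of the components of 10258 and 10737 bases also held most of the counts, with 91.8% and 93.1% for the first and 88.1% and 88.3% for the second. By the authors' deposited percent, which is per length, they held 40.7% and 45.1% for the first and 35.6% and 32.6% for the second. On that scale short transcripts stood above them, one of 685 bases with 53.0% and 54.9% in the first and one of 564 bases with 45.2% and 35.7% in the second. At the other end, the transcript of 10955 bases held 0.493% in brackish and 0.797% in fresh water, and most counts of its component lay in transcripts under 10000 bases.

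Counting all transcripts of 10000 bases or more together gave a larger share. They held a median of 73.0% of the counts of their component in each library, and at least 50% in 16 of the 23 components. By the authors' deposited percent the medians were 38.5% in brackish and 45.1% in fresh water, with at least 50% in 9 components of each library. In the component of 11465 bases, 11 such transcripts held 99.6% of the counts in both libraries although the longest held 1.19% in brackish and 1.69% in fresh water. Components with more transcripts tended to have a smaller share in the longest one. Spearman's rho between the number of transcripts and that share in brackish water was -0.76 over the 23, a description of 1 assembly in which both values depend on the division into transcripts.

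**Figure D4:**
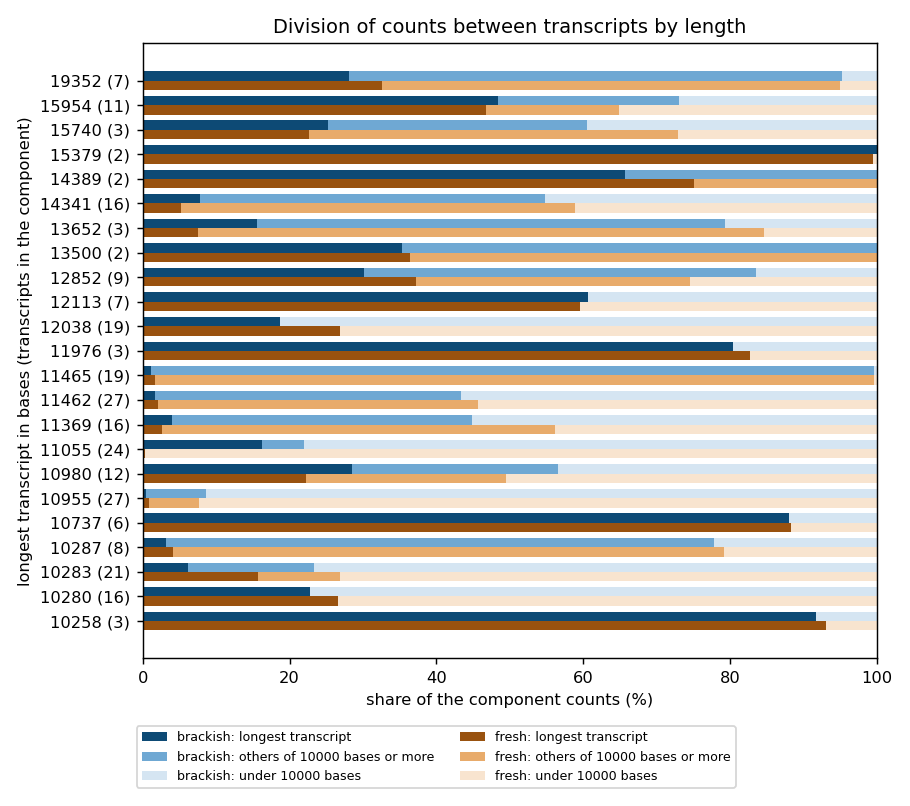
Share of each component's estimated counts held by its longest transcript (dark), by other transcripts of 10000 bases or more (middle) and by shorter ones (light), in percent. Upper bars are brackish water, lower bars fresh water, and the number of transcripts stands in parentheses. The share of transcripts of 10000 bases or more differs most in the component of 11055 bases, with 22.0% in long transcripts in brackish and 0.342% in fresh water.

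The difference in comp127629_c3 was spread over several of its 7 transcripts. The 5 transcripts of 10000 bases or more held 95.3% of its counts in brackish and 94.9% in fresh water. The transcript of 11015 bases had 9496 counts in brackish and 3216 in fresh water, 2.97-fold higher, and that of 11551 bases had 11369 and 4996 counts, 2.29-fold higher. The longest, of 19352 bases, had 10218 and 5582 counts and was 1.84-fold higher in brackish water, under the 2-fold rule. The transcripts of 11263 and 10727 bases were 1.32-fold and 1.69-fold higher. Of the pair of short transcripts, that of 1970 bases had 1709 and 648 counts, whereas that of 1969 bases had 0 counts in brackish and 218 in fresh water. The latter was higher in fresh water, with a lower limit of 58.2-fold for the exact 95% interval from counting error. That limit leaves out the division of reads between related transcripts, which was not tested for this pair. All 5 transcripts of 10000 bases or more were thus higher in brackish water, by unequal amounts.

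The component of 15954 bases held 11 transcripts, and 6 of them reached the minimum of 50 scaled counts. Its longest transcript had 1789 counts in brackish and 827 in fresh water, 2.18-fold higher, and the transcript of 13645 bases had 910 and 323 counts, 2.84-fold higher. One transcript went the other way, that of 8807 bases, with 92.6 counts in brackish and 352 in fresh water, 3.76-fold higher in fresh water. In comp127551_c2, by contrast, the fold rested on 1 transcript, since its other transcript of 3690 bases had 0 counts in brackish and 22.7 in fresh water.

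The most abundant pair differed in how steady its transcripts were. In comp119566_c0 the transcript of 11714 bases held 64.7% of the counts in brackish and 63.6% in fresh water, and that of 13500 bases the rest. In the component of 13652 bases, the transcript of 13464 bases had 49906 counts in brackish and 65735 in fresh water, 1.31-fold higher in fresh water. Its other long transcript, of 13652 bases, had 12246 and 6484 counts, 1.90-fold higher in brackish water, and a short one of 2249 bases had 16161 and 13084 counts, 1.24-fold higher in brackish water. The total of this component was higher in fresh water by counts but higher in brackish water by TPM, at 211 against 188 TPM. Such a turn between counts and TPM was found in 4 of the 23 components, those of 13652, 11369, 11055 and 10980 bases, each within 1.21-fold by counts. How often such a turn occurred over all components was not computed.

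Over the 23 components, single transcripts differed more often than totals. The minimum of 50 scaled counts was reached by 172 transcripts, of which 47 stood 2-fold or more above fresh water and 30 stood 2-fold or more below it, together 44.8%. The same rule met 38.9% of all transcripts compared. Of the 77 transcripts that met it, 67 lay in components whose total was not 2-fold apart, 39 of them higher in brackish and 28 in fresh water. Differences of 2-fold in opposite directions occurred together in 11 components. Among the transcripts of 10000 bases or more, 14 of 72 compared were 2-fold higher in brackish and 10 in fresh water. Neither for opposite directions nor for these long transcripts was a share over the whole assembly computed. Of the 23 longest transcripts, 3 met the rule in brackish water, those of 15954, 15379 and 11055 bases, and 1 in fresh water, that of 10283 bases. The last of these component names has another transcript of 10283 bases, with fewer counts, which was 1.55-fold higher in fresh water and did not meet the rule.

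No component of the 23 had a transcript whose share of counts moved by 50 percentage points between the libraries, against 6.15% of the 14852 components that hold several transcripts and have 50 counts or more on each side. Their largest move ranged from 0.592 to 27.0 points, with a median of 9.32, against 13.4 over those 14852. A move of at least 10 points was found in 11 of the 23 (47.8%) and in 61.5% of the 14852. That background reaches down to 50 counts, whereas each of the 23 had 1446 or more in each library. No background of like depth was computed, so the long components cannot be called steadier than others of their depth. By the authors' deposited percent, which is per length, the largest move in the 23 was 39.0 points, in comp127523_c2. The transcript with the most counts was the same one in both libraries for 14 components and a different one for 9. How often it differed over all components was not computed.

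Of the 3 components with the largest moves by share of counts, 2 had theirs in a transcript listed at 0 in fresh water. In the component of 12038 bases, with 19 transcripts, the transcript of 6158 bases had 619 counts (27.0% of the component) in brackish and 0 in fresh water. It was higher in brackish water, with a lower limit of 168-fold for the exact interval from counting error only. The longest transcript had 430 and 420 counts. In comp127523_c2, with 24 transcripts, that of 9033 bases held 16.3% of the counts in brackish and 40.9% in fresh water. Its longest transcript, of 11055 bases, had 403 counts in brackish and 9.36 in fresh water, 41.2-fold higher, although the component total was 1.21-fold higher in fresh water. In the component of 12852 bases, the transcript of 12471 bases had 782 counts (21.1%) in brackish and 0 in fresh water. It was higher in brackish water, with a lower limit of 213-fold by the same kind of interval.

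The reverse case with the most counts was in the component of 11465 bases. Its transcript of 10039 bases had 3159 counts in fresh water, 16.9% of the component, and 0 in brackish water. It was higher in fresh water, with a lower limit of 850-fold for the exact interval from counting error only. The total of that component was 1.04-fold higher in brackish water. In all, 10 transcripts of the 23 components had at least 50 scaled counts in brackish and 0 in fresh water, and 5 had the reverse. In 3 components both kinds occurred together. The same counts over all transcripts were not computed, so whether these numbers are unusual for the assembly is not known. Another 41 of the 263 transcripts were at 0 in both libraries. How reads were divided between related transcripts carries an error that is not in the files, so these values are less certain than the totals.

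**Figure D5:**
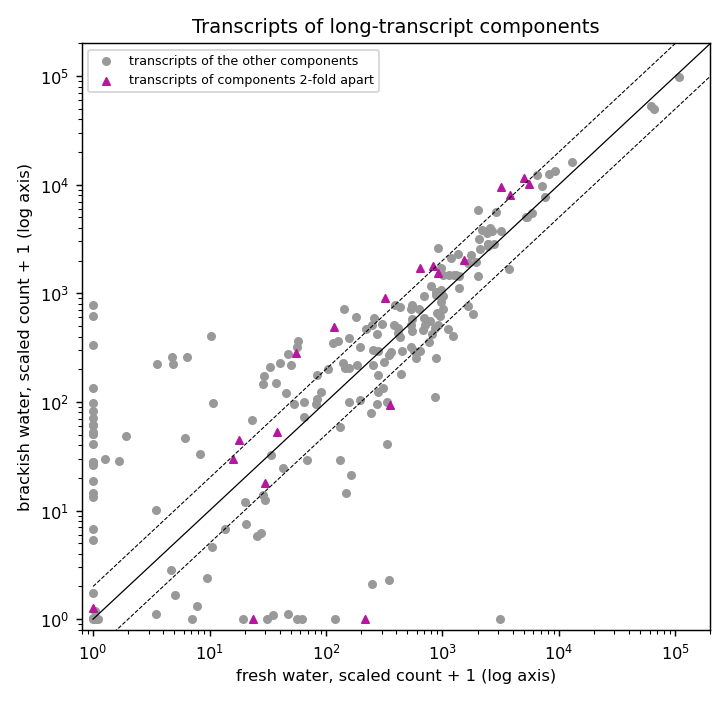
Scaled counts plus 1 of the transcripts of the 23 components in fresh water (horizontal, log axis) and in brackish water (vertical, log axis), leaving out those at 0 in both libraries. The solid line marks equal levels and the dashed lines 2-fold, and triangles are transcripts of the 3 components whose totals were 2-fold apart. Points along either axis are transcripts at 0 in 1 library, up to 3148 scaled counts in fresh water alone.

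The components with the most transcripts, 27 each, had steady totals. That of 11462 bases had 179.9 CPM in brackish and 167 CPM in fresh water, a 1.08-fold higher level in brackish water (1.05 to 1.10). Within it, the transcripts of 10952 and 11069 bases had 1.29 and 1.10 counts in brackish water against 345 and 249 in fresh water. That of 10955 bases was 1.02-fold higher in brackish water, and its 4 transcripts with the most counts, of 2398 to 3418 bases, were each within 1.15-fold.

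Most of the 23 identifiers have high leading numbers, with 21 of them in the highest 20% over all components and 0 in the highest 5%. For 19 of the 23, other components carry the same leading number, 89 in all, and 34 of these had 200 or more scaled counts in whichever library was higher. These 34 were short, with longest transcripts of up to 4951 bases. Their median log2 fold was 0.12. A 2-fold higher level in brackish water was found for 3 of the 34 and in fresh water for none. Among 21026 components with the same minimum, 3.47% were 2-fold higher in brackish and 3.85% in fresh water. The 3 shared numbers with the long components of 11976, 10737 and 10287 bases. The one beside the component of 11976 bases, of 2085 bases, had 505 counts in brackish and 174 in fresh water, 2.91-fold higher.

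Among these 34, the components that share a number with the 2-fold ones differed less and in both directions. Beside comp127629_c3, 4 such components of 283 to 2366 bases were each lower in brackish water. The one with the most counts had 3197 in brackish and 3673 in fresh water, 1.14-fold higher in fresh water. Beside comp127551_c2, that of 4076 bases had 1250 and 783 counts, 1.61-fold higher in brackish water, and that of 3752 bases had 1141 and 1225 counts. None of the 7 components among the 34 that share a number with the 2-fold ones was itself 2-fold apart.

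The authors' deposited table lists 214 transcripts of the 23 components and calls none of them, against 0.223% of its 133434 transcripts. In the authors' deposited table, 2 of the 214 have a p-value under 0.05 without adjustment, and the lowest FDR among the 214 is 0.9999. Among these 214, the lowest p-value in the authors' deposited table is 0.0405, for the transcript of 11015 bases of comp127629_c3. Its FPKM was 11.48 in brackish and 3.85 in fresh water. The second lowest of the 214 in the authors' deposited table is 0.0470, for the transcript of 10039 bases that was at 0 in brackish water. FPKM stands for fragments per kilobase of transcript, scaled by library size. The median of the higher FPKM of these transcripts was 0.99. Of the 214, 11 reached 13.31, the lowest higher FPKM of any transcript called in the authors' deposited table. The median over all listed transcripts was not computed, and whether the level bears on the absence of calls was not tested.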

How the data were processed

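RNA of 9 mixed tissues was sequenced as 1 library per salinity. Per the labels' protocols, RNA was treated with DNase, enriched with oligo(dT) beads, fragmented, copied with random hexamers and amplified by PCR, and no step that marks the strand is named. The tools that assembled, aligned and counted are not given in the sources used. The authors deposited an estimated count (expected count), TPM, FPKM and the percent of its component for each of 145445 transcripts, per the file headers. The effective length listed equals the length for all 145445. A further table deposited by the authors holds log2 folds, p-values and FDR values, and for each of its 133434 transcripts the counts equal those of the libraries.

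Counts were summed by component and scaled by library totals. The division of reads between transcripts affects single transcripts more than sums. With 1 library per group no p-value was computed. Folds carry a pseudocount of 0.5, and exact (Clopper-Pearson) 95% intervals used rounded counts. PCR reads without molecular identifiers are not independent molecules, so intervals are too narrow. Against a count of 0, the lower limit of the exact interval is given, which covers counting error only. The alternatives used TMM factors (edgeR 4.0.16), DESeq2 1.42.0 size factors (both on rounded component sums, in R 4.3.3), TPM, and other minimums, folds and lengths. Where 2 transcripts tie for the longest, the one with more counts was taken.

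Components were named by length, level per kilobase, fold (at least 200 scaled counts), number of transcripts, move of a transcript share and nearness to the length limit. Other transcripts and components were named after their values were seen. The members and rules were chosen with earlier results of these data known. No sequence or genome position is given, as no reference was used here.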

Additional observations from a re-analysis of the deposited data

How the results depend on the processing

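No paired analysis was possible because neither salinity has a second library, and for the same reason none could be left out. The number of long components at least 2-fold apart, 3 and all higher in brackish water, became 5 at 1.5-fold, 0 at 4-fold and 5 of 73 from a length of 8000 bases, again with none higher in fresh water. It stayed within 1.5 times under the other 11 alternatives, with 4 for totals without the most abundant set and 2 for an interval wholly beyond 2-fold. Several of these 11 could hardly change the number. All 23 had 1446 or more counts in each library, far above the minimums of 10 and 200 and the pseudocount of 5. The limit of 12000 bases kept all 3 components, and TMM factors shifted each log2 fold by only -0.001. The median log2 fold of 0.20 became 0.35 for totals without that set and 0.29 with TPM, and stayed within the counting interval of the median component (0.16 to 0.24) under the other 7.

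The share of library counts, 0.625% in brackish and 0.588% in fresh water, became 0.734% and 0.620% for totals without the most abundant set and 0.102% and 0.0873% with TPM. From 8000 bases it was 1.28% and 1.17%, from 12000 bases 0.4496% and 0.439%, and with any number of transcripts 0.678% and 0.630%. Moves of a transcript share of counts numbered 0 at 50 points and 1 at 25 points. By the authors' deposited percent none reached 50 points either. The components of 11055, 10280 and 12038 bases then had moves of 39.04, 25.75 and 25.16 points. The median share of the longest transcript, 25.2% and 26.6%, was 12.3% and 13.1% by the authors' deposited percent, which is per length, and 22.8% and 19.6% from 8000 bases. Depth limits these totals little, and missing replicates limit each statement.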
